A study of Rattus norvegicus with 16 samples.

Results

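The response of NRK-49F cells to extracellular acidosis is described here across all genes, by the comparison of 4 libraries from cells kept at pH 6.0 with 4 libraries from cells kept at pH 7.4. The libraries were chosen by cell line and pH as labelled, and they are 8 of the 16 libraries of the series. NRK-49F cells are fibroblasts derived from healthy rat kidney, and the other 8 libraries come from NRK-52E, a tubule-like epithelial line of the same origin. Fibroblasts on the floor of the wells and epithelial cells on filter inserts above them shared the medium, were kept without serum for 24 h and were then exposed to pH 7.4 or pH 6.0 for 48 h. RNA enriched for poly(A) was sequenced separately for each line. All groups were thus in co-culture and differ in line and in the pH of the medium, and no group of fibroblasts alone was sequenced. The question behind the comparison is which genes of renal fibroblasts respond to an acidic medium while tubule cells share it. The labels do not say whether the 4 libraries of a group come from separate cultures, so each p measures the spread between libraries, which may be technical.

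Interstitial fibroblasts of the kidney build and remodel the extracellular matrix, can turn into contractile myofibroblasts under transforming growth factor beta (TGF-beta), and exchange growth factors, chemokines and cytokines with the neighbouring tubule epithelium. Cells in an acidic medium export protons and take up bicarbonate through membrane transporters, and extracellular protons are sensed by G protein-coupled receptors and ion channels. Oxidative or electrophilic stress stabilises the transcription factor Nrf2, which drives genes for glutathione synthesis, detoxification and NADPH supply, and shortage of amino acids or unfolded proteins act through the kinases of the integrated stress response.

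The libraries at pH 7.4 held 19162294 (N9), 21470813 (N10), 17518187 (N13) and 27607214 (N14) fragments counted on genes. Those at pH 6.0 held 23872685 (N11), 16201084 (N12), 34314389 (N15) and 34784862 (N16). The column headers carry a second number of unknown meaning, 20 for N9, N10, N11 and N12 and 21 for N13, N14, N15 and N16, so that each number holds 2 libraries of each pH. Levels are given in FPM, fragments of a gene in a library scaled to 1000000 fragments with TMM factors over the 8 libraries, and values of single libraries are listed in the order N9, N10, N13 and N14 for pH 7.4 and N11, N12, N15 and N16 for pH 6.0. Pearson's r of log2(FPM + 1) across genes, which are not independent replicates, lay between 0.983 and 0.995 for pairs of libraries at the same pH and between 0.932 and 0.951 for pairs at different pH. In a principal component analysis 74.5% of the variance lay along the axis that split the pH groups. On the second axis, with 8.39%, N13 stood apart at -29.47, against -9.97 or more for the other 7 libraries. Counts of DEGs are therefore also given without N13.

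The fibroblast label was compared with marker genes. Of 18 fibroblast markers, 13 had enough counts to be tested, with Fn1, Vim and Col1a1 holding the most counts. Pdgfra, a receptor typical of fibroblasts, had a mean of 359.9 FPM at pH 7.4 and 333 FPM at pH 6.0. Thy1 had no count in any library, and Dcn, Fap, Tcf21 and Pdpn were near 0, with Dcn at a mean of 0.430 FPM at pH 7.4. The markers summed to 26280, 27350, 25910 and 28310 FPM at pH 7.4 and to 19990, 19340, 18060 and 18580 FPM at pH 6.0. Among 18 epithelial markers, Cldn7 and Esrp1 had no count, and Cdh1, Epcam and Krt18 had means between 0 and 0.21 FPM in the pH groups. The sum of the epithelial markers was 750.7, 732.6, 887.5 and 767.1 FPM at pH 7.4 and 190.2, 205.4, 183.4 and 182.2 FPM at pH 6.0, nearly all of it from Krt8. Ptprc, Adgre1 and Tyrobp of the leukocyte markers and Kdr, Emcn and Cldn5 of the endothelial markers had no count. The leukocyte markers summed to 329.3, 316.6, 356.5 and 325.8 FPM and 330.6, 326.6, 343.9 and 353.3 FPM at pH 7.4 and pH 6.0, mostly from Cd14 and Cd68. These changed in opposite directions, with a fall of Cd14, a receptor for bacterial lipopolysaccharide, from 256 to 117 FPM (-1.13) and a rise of Cd68, a lysosomal membrane protein, from 74.6 to 220.4 FPM (1.56). The endothelial markers summed to 39.71, 40.52, 48.05 and 47.31 FPM and 17.79, 19.9, 21.17 and 21.84 FPM, mostly from Egfl7.

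Of 13 fibroblast markers tested 2 rose and 6 fell at pH 6.0 (15.4% and 46.2%, beside 18.4% and 19.4% of all genes tested). Vim (vimentin, ENSRNOG00000018087, chromosome 17 of rn6), the intermediate filament protein of mesenchymal cells, measured 5884, 6111, 7451 and 6669 FPM at pH 7.4 and 2403, 2513, 2298 and 2202 FPM at pH 6.0. All libraries at pH 6.0 were below all libraries at pH 7.4, with a log2 fold change of -1.47 (SE 0.11, adjusted p = 9.0e-07 in edgeR), -1.29 and -1.64 within numbers 20 and 21. In bulk RNA, fewer cells that express a gene and less of its RNA per cell cannot be told apart. S100a4, a calcium-binding protein of fibroblasts, fell from 2069 to 570.2 FPM, and Pdgfrb, the receptor for platelet-derived growth factor B, from 80.0 to 19.7 FPM. Ddr2, a collagen receptor, and Fbln1, a matrix glycoprotein, rose, by 0.84 and 0.71 on the log2 scale. Krt8 (keratin 8, ENSRNOG00000009779, chromosome 7 of rn6), counted here among the epithelial markers, measured 745, 727, 882 and 761 FPM at pH 7.4 and 188, 203, 179.8 and 178 FPM at pH 6.0. No library of either group reached the other, and Krt8 fell with a log2 fold change of -2.06 (SE 0.10, adjusted p = 4.8e-08 in edgeR), -1.91 and -2.18 within numbers 20 and 21. Cldn1, a tight junction protein, had 10 to 28 counts per library at pH 7.4 and none at pH 6.0, so that its level was at least 32.2-fold lower against a floor of 3 counts over the group.

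Of 32623 genes in the table, 19879 had a count in these libraries and 13339 passed the filter on low counts. Genes counted as differentially expressed (DEGs) when edgeR as well as DESeq2 gave a false discovery rate (FDR) under 0.01. There were 5039 DEGs, 37.8% of the genes tested, of which 2456 (18.4%) were higher and 2583 (19.4%) lower at pH 6.0. Without N13 there were 4993, with 2457 higher and 2536 lower, and 4640 genes were DEGs with and without it. With the libraries of number 20 alone 4680 genes were DEGs, and with those of number 21 alone 1980. The median log2 fold change of all genes tested was -0.0029, and the median absolute value of the DEGs was 0.859. Changes of at least 2 on the log2 scale were more often falls, with 355 lower against 178 higher. At the other end, 702 DEGs had an absolute log2 fold change under 0.5. The pH groups did not overlap for 6458 genes, 48.4% of those tested, and for 4933 of the DEGs. For every gene shown with all libraries whose groups did not overlap, the exact permutation test, two-sided, gave p = 0.0286, the smallest that 4 against 4 libraries allow (2 of 70 arrangements). Long intergenic RNAs made up 89 of the DEGs, 44 higher and 45 lower, of 271 tested.

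**Figure D1:**
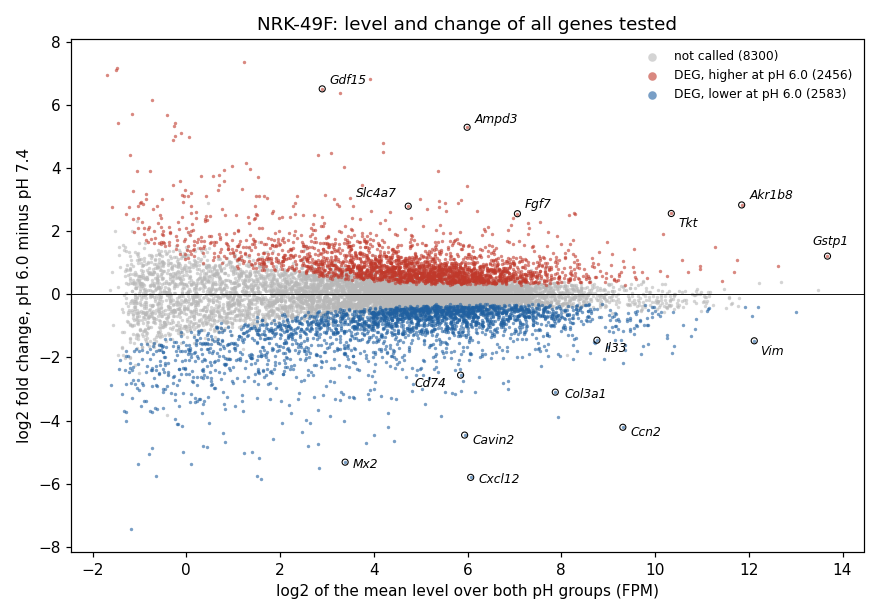
Log2 fold change (pH 6.0 against pH 7.4, vertical axis) of each of the 13339 genes tested in NRK-49F cells against its mean level (horizontal axis, log scale), with the 2456 higher and 2583 lower DEGs coloured and some genes named. Changes below -2 (355 DEGs) outnumber those above 2 (178 DEGs).

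Ranked were genes with a symbol whose groups were apart and whose mean reached 10 FPM at either pH. The largest rise was that of Gdf15, a stress-induced cytokine of the TGF-beta family. Gdf15 (ENSRNOG00000019661, chromosome 16 of rn6) measured 0.156, 0.235, 0.306 and 0 FPM at pH 7.4 and 18.1, 14.2, 18.4 and 8.28 FPM at pH 6.0. It was close to 0 in all libraries at pH 7.4 and above 8 FPM in all at pH 6.0, with a log2 fold change of 6.517 (SE 0.47, adjusted p = 6.6e-07 in edgeR), 6.32 and 6.79 within numbers 20 and 21. Ampd3 (ENSRNOG00000018262, chromosome 1 of rn6), an AMP deaminase that turns AMP into IMP, measured 2.54, 3.66, 3.19 and 3.19 FPM at pH 7.4 and 84.3, 89.6, 141 and 182 FPM at pH 6.0. Number 21 held the highest libraries at pH 6.0, and no library of either pH came near the other group, with a log2 fold change of 5.30 (SE 0.27, adjusted p = 6.1e-08 in edgeR), 4.80 and 5.67 within numbers 20 and 21. Prss22, a serine protease, Col20a1, a collagen of the fibril-associated class, and Haus8, a subunit of the augmin complex of the spindle, rose from 0.238 to 19.1 FPM, from 5.16 to 78.1 FPM and from 10.7 to 116 FPM. Erfe, a hormone that lowers hepcidin, rose from 1.88 to 15.9 FPM. Chrne, Mlh3 and Mphosph8 also belong to the largest rises, with log2 fold changes of 4.81, 4.50 and 3.02. The methods list no strand option in counting, so fragments of overlapping or antisense transcripts cannot be told apart from those of the gene itself. This applies to Chrne, Mlh3 and Mphosph8 as to all others. The remaining genes of this group were Klhl40, Shc4, Cdh17, Pycr1 and Olfm1, at 3.46, 3.14, 3.06, 3.001 and 2.96.

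The largest fall by the same ranking was that of Cxcl12 (ENSRNOG00000013589, chromosome 4 of rn6). This gene, the chemokine that holds leukocytes and progenitor cells in stromal niches, measured 138, 138, 125 and 126 FPM at pH 7.4 and 3.20, 3.19, 1.30 and 2.12 FPM at pH 6.0. It was high in all libraries at pH 7.4 and nearly lost in all at pH 6.0, with a log2 fold change of -5.80 (SE 0.22, adjusted p = 1.3e-08 in edgeR), -5.43 and -6.18 within numbers 20 and 21. Mx2 (ENSRNOG00000001963, chromosome 11 of rn6), an antiviral GTPase induced by interferon, measured 17.2, 18.8, 20.04 and 25.7 FPM at pH 7.4 and 1.01, 0.430, 0.232 and 0.424 FPM at pH 6.0. The groups lay far apart, with a log2 fold change of -5.32 (SE 0.32, adjusted p = 1.7e-07 in edgeR), -4.54 and -6.09 within numbers 20 and 21. Ccn2 (ENSRNOG00000015036, chromosome 1 of rn6), also known as connective tissue growth factor and a target of both TGF-beta and YAP, measured 1309, 1272, 1281 and 968 FPM at pH 7.4 and 92.1, 101, 35.6 and 32.4 FPM at pH 6.0. N14 was lower than the other libraries at pH 7.4, yet every library at pH 6.0 was far below it, with a log2 fold change of -4.21 (SE 0.36, adjusted p = 2.2e-06 in edgeR), -3.74 and -5.03 within numbers 20 and 21. Its relative Ccn3 fell from 459 to 30.8 FPM. Btc (betacellulin), a ligand of the epidermal growth factor receptor, fell from 11.7 to 0.404 FPM, Ccl5, a chemokine for T cells, from 19.5 to 1.18 FPM, and Cavin2, a coat protein of caveolae, from 117 to 5.38 FPM. Sema3d, a guidance factor of the semaphorin family, had a log2 fold change of -4.06. Fam180a, Kcnip4, Atoh8, Atp8b3, Abca8 and Olfm2 also belong to the largest falls, with log2 fold changes between -5.52 and -3.97.

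The 5 receptors for protons that were listed were hardly counted, with a sum of at most 0.961 FPM in any library. Gpr65 and Gpr31 had 0 counts, Gpr4 had 3 counts in all, and Gpr132 had 0 to 23 counts per library, so that none of them passed the filter. Of the channels opened or modulated by protons, 3 were tested. Trpv1, a channel gated by heat, capsaicin and acid, rose from 0.233 to 3.69 FPM, Pacc1, the acid-activated chloride channel, rose from 27.8 to 41.8 FPM, and Asic1, an acid-sensing sodium channel, fell from 2.75 to 1.12 FPM.

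Transporters of acid and base changed in both directions. Of 23 tested, 4 rose and 7 fell, and their median log2 fold change was 0.00. The shares were 17.4% and 30.4%, beside 18.4% and 19.4% of all genes tested. Slc4a7 (ENSRNOG00000005957, chromosome 15 of rn6), a sodium-bicarbonate cotransporter that loads cells with base, measured 8.19, 9.63, 3.003 and 5.84 FPM at pH 7.4 and 39.4, 43.2, 45.8 and 58.1 FPM at pH 6.0. Expression was lowest in N13, and all libraries at pH 6.0 lay far above those at pH 7.4, with a log2 fold change of 2.80 (SE 0.27, adjusted p = 5.0e-06 in edgeR), 2.21 and 3.53 within numbers 20 and 21. Slc4a4, another sodium-bicarbonate cotransporter, rose from 3.22 to 5.96 FPM. The anion exchangers Slc4a2, Slc4a3 and Slc26a6, which move bicarbonate out of the cell in exchange for chloride, fell (-1.75, -0.97 and -0.83). Chp1, a calcium-binding partner of sodium-proton exchangers, rose from 122 to 184 FPM, and Slc9a9, an endosomal exchanger, fell from 9.43 to 0.970 FPM. Slc16a1 (ENSRNOG00000019996, chromosome 2 of rn6), which carries lactate together with a proton, measured 99.7, 86.5, 57.4 and 65.3 FPM at pH 7.4 and 138, 140.1, 171 and 163 FPM at pH 6.0. The highest library at pH 7.4 stayed below the lowest at pH 6.0, with a log2 fold change of 0.99 (SE 0.16, adjusted p = 2.5e-04 in edgeR), 0.58 and 1.46 within numbers 20 and 21. Bsg (basigin), the subunit that brings Slc16a1 to the membrane, fell from 908 to 512 FPM. Ca9, the carbonic anhydrase on the cell surface, averaged 156 and 216 FPM at pH 7.4 and pH 6.0 and was no DEG, while Ca5b, a mitochondrial one, fell from 209 to 87.7 FPM.

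The vacuolar proton pump and the lysosome, which handle acid inside the cell, had no common direction. Of 21 pump subunits tested 3 rose and 5 fell, with a median of 0.13 and shares of 14.3% and 23.8%. Atp6v0a2 rose from 38.6 to 78.9 FPM, and Atp6v1h and Atp6v1a rose by 0.45 and 0.44 on the log2 scale. Atp6v1g1 and Atp6v0d1 fell from 268 to 186 FPM and from 145 to 97.0 FPM. Atp6v1c2 and Atp6v1g2, minor forms of their subunits, fell from 6.38 to 2.003 FPM and from 2.62 to 0.596 FPM. Of 55 lysosomal genes 13 rose and 11 fell, with a median of 0.09, and these shares of 23.6% and 20% lie near those of all genes tested (18.4% and 19.4%). Ctsd (ENSRNOG00000020206, chromosome 1 of rn6), the aspartic protease cathepsin D, measured 2359.9, 2335, 2747 and 2624 FPM at pH 7.4 and 3593, 3602, 4463 and 4797 FPM at pH 6.0. Levels were higher in all libraries at pH 6.0, with a log2 fold change of 0.71 (SE 0.12, adjusted p = 4.7e-04 in edgeR), 0.62 and 0.80 within numbers 20 and 21, and the value within number 21 missed the threshold (adjusted p = 0.0201 in edgeR). The cysteine protease Ctsb, the lipase Lipa and Naglu, which degrades heparan sulfate, rose as well (0.82, 1.03 and 1.15), whereas Ctsh, a further cysteine protease, and the beta-galactosidase Glb1 fell (-1.28 and -1.02). Tfeb, a transcription factor of lysosomal genes, fell from 24.8 to 13.1 FPM.

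Of 68 genes of the Nrf2 pathway tested, 36 (52.9%) rose and 5 (7.35%) fell, beside 18.4% and 19.4% of all genes tested, and the median log2 fold change was 0.50, beside -0.0029. The list was chosen with the response of such genes in these data known, so its direction was known when it was written. Among the regulators, Nfe2l2 itself (ENSRNOG00000001548, chromosome 3 of rn6), the gene of Nrf2, measured 369, 376, 388 and 308 FPM at pH 7.4 and 259, 281, 296 and 282 FPM at pH 6.0. The highest library at pH 6.0 lay just under the lowest at pH 7.4, with a log2 fold change of -0.37 (SE 0.10, adjusted p = 0.00754 in edgeR), -0.47 and -0.25 within numbers 20 and 21. It was a DEG without N14 but not without any of the other 7 libraries (-0.39 to -0.33, adjusted p = 0.0128 to 0.0263 in edgeR). Bach1 (ENSRNOG00000001582, chromosome 11 of rn6), a repressor that competes with Nrf2 for its sites, measured 27.1, 32.4, 13.4 and 24.5 FPM at pH 7.4 and 61.0, 62.3, 56.0 and 68.5 FPM at pH 6.0. N13 was the lowest library, and all 4 at pH 6.0 exceeded all at pH 7.4, with a log2 fold change of 1.34 (SE 0.20, adjusted p = 1.6e-04 in edgeR), 1.05 and 1.72 within numbers 20 and 21. Of the small Maf proteins that pair with Nrf2 and Bach1, Maff and Mafg rose (0.97 and 0.93) and Mafk fell (-0.46).

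Detoxifying enzymes and the glutathione system held most of the rises. Akr1b8 (ENSRNOG00000009734, chromosome 4 of rn6), an aldo-keto reductase for lipid aldehydes, measured 876, 833, 951 and 963 FPM at pH 7.4 and 5885, 6268, 7434 and 6286 FPM at pH 6.0. Mean expression was 7.14 times as high at pH 6.0, without overlap and with a log2 fold change of 2.84 (SE 0.12, adjusted p = 1.9e-08 in edgeR), 2.83 and 2.86 within numbers 20 and 21. Gstp1 (ENSRNOG00000018237, chromosome 1 of rn6), a glutathione transferase, measured 7389.6, 7084, 9132 and 8008 FPM at pH 7.4 and 15237, 18048, 20037 and 19997 FPM at pH 6.0. It held more counts than any other gene in each library at pH 6.0, 1.57% to 2.03% of the total, and rose with a log2 fold change of 1.21 (SE 0.13, adjusted p = 1.2e-05 in edgeR), 1.201 and 1.24 within numbers 20 and 21. The glutathione transferases Gsta2 and Gstm1 rose from 0.0153 to 0.878 FPM and from 53.8 to 259.9 FPM, and the export pumps Abcc1 and Abcc4 from 32.8 to 134 FPM and from 53.8 to 175 FPM. Gclc (ENSRNOG00000006302, chromosome 8 of rn6), the catalytic subunit of the enzyme that limits glutathione synthesis, measured 73.8, 69.6, 63.7 and 55.7 FPM at pH 7.4 and 216, 234, 274 and 268 FPM at pH 6.0. Every library at pH 6.0 was far above those at pH 7.4, with a log2 fold change of 1.92 (SE 0.12, adjusted p = 1.7e-07 in edgeR), 1.65 and 2.20 within numbers 20 and 21. Its modifier subunit Gclm, the cystine transporter Slc7a11, the thioredoxin reductase Txnrd1 and the peroxiredoxin Prdx1 rose by 2.06, 1.64, 1.59 and 1.45. Sod1, the cytosolic superoxide dismutase, averaged 386 FPM at pH 7.4 and 351 FPM at pH 6.0 and was no DEG. The falls of the list were those of Nfe2l2 (-0.37), Mafk (-0.46), Mgst1 (-0.74), Ephx1 (-0.77) and Glrx (-1.28). Gst and Akr genes belong to families of near-identical copies, and since fragments that map to several places were counted at each, members can share counts.

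Of 8 genes of NADPH supply 4 rose and 4 were no DEGs, with a median of 0.56 and shares of 50% and 0%, beside 18.4% and 19.4% of all genes tested. Tkt (ENSRNOG00000016064, chromosome 16 of rn6), the transketolase of the pentose phosphate pathway, measured 350.3, 365, 400.1 and 390.0 FPM at pH 7.4 and 2162, 2231, 2501 and 2022 FPM at pH 6.0. The lowest library at pH 6.0 was several times the highest at pH 7.4, with a log2 fold change of 2.57 (SE 0.11, adjusted p = 1.9e-08 in edgeR), 2.62 and 2.53 within numbers 20 and 21. Taldo1, the transaldolase of the same pathway, rose from 484 to 1814 FPM, and Me1, the malic enzyme, from 40.9 to 69.998 FPM. Of the iron genes, Ftl1 and Ireb2, the ferritin light chain and an iron sensor, rose by 0.96 and 1.01, while Tfrc, the transferrin receptor, had a log2 fold change of 0.03 and was no DEG.

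Of 23 targets of the integrated stress response tested 13 rose and 0 fell, with a median of 0.67 and shares of 56.5% and 0%, beside 18.4% and 19.4% of all genes tested. Of 13 regulators 2 rose and the others were no DEGs (15.4% and 0%), a share of rises near that of all genes. Pycr1 (ENSRNOG00000036682, chromosome 10 of rn6), the last enzyme of proline synthesis, measured 13.53, 10.001, 10.2 and 17.3 FPM at pH 7.4 and 147, 105, 95.8 and 63.8 FPM at pH 6.0. Number 20 held the highest libraries at pH 6.0, and all exceeded those at pH 7.4, with a log2 fold change of 3.001 (SE 0.25, adjusted p = 1.7e-06 in edgeR), 3.43 and 2.53 within numbers 20 and 21. Psat1, an enzyme of serine synthesis, and Trib3, a pseudokinase that dampens this response, rose from 9.58 to 35.7 FPM and from 4.10 to 14.002 FPM, and the amino acid transporters Slc3a2 and Slc1a5 by 0.74 and 0.51 on the log2 scale. Atf4 (ENSRNOG00000017801, chromosome 7 of rn6), the transcription factor at the centre of this response, measured 190.2, 198, 236 and 207 FPM at pH 7.4 and 281, 284, 244 and 189 FPM at pH 6.0. N16 was below the lowest library at pH 7.4, and the groups overlapped, with a log2 fold change of 0.26 (SE 0.13, adjusted p = 0.105 in edgeR), 0.54 and -0.02 within numbers 20 and 21 (exact permutation p = 0.2). Without N16, Atf4 was a DEG at 0.38 (adjusted p = 0.00918 in edgeR). Atf3, a related factor, rose from 1.21 to 8.43 FPM. Of 20 cytosolic tRNA synthetases 9 rose and 0 fell (45% and 0%, median 0.42), with Mars1 (1.07), Eprs (0.87) and Gars (0.75) the largest. With number 20 alone 14 synthetases were higher (median 0.68), and with number 21 alone 1 was (median 0.22).

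Of 32 genes of endoplasmic reticulum stress 7 rose and 2 fell (21.9% and 6.25%, median 0.09), beside 18.4% and 19.4% of all genes tested. The 2 that fell were Herpud1 (-0.69), listed under degradation, and Sdf2l1 (-0.62), listed under chaperones. Ero1a, the oxidase that forms disulfide bonds, rose from 32.1 to 142 FPM, Hyou1, a chaperone, from 123 to 274 FPM, and Atf6, a stress sensor, from 24.3 to 52.9 FPM, whereas Pdia3, a disulfide isomerase, and Calr (calreticulin) were no DEGs (0.09 and -0.36). Of 21 heat shock genes 8 rose and 0 fell (38.1% and 0%, median 0.23), among them the mitochondrial chaperones Hspa9 (0.82) and Hspd1 (0.65). Targets of p53 went both ways, 4 higher and 5 lower of 18 (median 0.06), or 22.2% and 27.8% beside 18.4% and 19.4% of all genes tested, with Cdkn1a, the p21 inhibitor, at 0.40 and no DEG. Genes of apoptosis had 3 rises and 4 falls of 27 (11.1% and 14.8%, median 0.02), and those of autophagy 5 and 5 of 33 (15.2% and 15.2%, median 0.05), all below the shares of all genes. Proteasome subunits had 6 rises and 1 fall of 32 (18.8% and 3.12%), with a median of 0.04.

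Among genes of DNA replication, 24 of 49 tested rose, 1 fell and 24 were no DEGs, with a median of 0.67 and shares of 49% and 2.04%, beside 18.4% and 19.4% of all genes tested. Within the replication fork and licensing factors 20 of 30 rose and 1 fell (66.7% and 3.33%). Mcm2 (ENSRNOG00000016316, chromosome 4 of rn6), a subunit of the replicative helicase, measured 74.4, 70.8, 85.3 and 97.4 FPM at pH 7.4 and 154, 152, 169 and 179 FPM at pH 6.0. The groups were separated, with a log2 fold change of 0.99 (SE 0.11, adjusted p = 1.8e-05 in edgeR), 1.07 and 0.94 within numbers 20 and 21. Cdc45, a partner of that helicase, Cdt1, a licensing factor, and Pold1, a replicative polymerase, rose by 1.57, 1.38 and 1.39. Gins2, another helicase partner, was the only DEG of the list that fell (-0.60). Genes of mitosis had 13 rises and 2 falls of 49 (26.5% and 4.08%, median 0.32), with 15 and 8 in number 20 alone and 5 and 0 in number 21 alone. Mad2l1 and Pttg1, which hold back chromosome separation, rose by 1.51 and 1.32. Cenpf (ENSRNOG00000003388, chromosome 13 of rn6), a kinetochore protein, measured 14.8, 13.1, 17.4 and 20.3 FPM at pH 7.4 and 2.92, 4.91, 4.40 and 11.98 FPM at pH 6.0. N16 was the highest library at pH 6.0 and still below all at pH 7.4, with a log2 fold change of -1.42 (SE 0.35, adjusted p = 0.00454 in edgeR), -1.87 and -1.19 within numbers 20 and 21. Without N9, N10, N12, N13, N14 or N15 Cenpf was no DEG, as edgeR or DESeq2 missed the threshold (-1.51 to -1.28, adjusted p = 0.00622 to 0.0177 in edgeR), and within number 21 adjusted p was 0.037 in edgeR. Its log2 fold change was -2.01 without N16 and -1.18 without N11. Cenpa, the histone of centromeres, fell (-1.55), while Top2a, a topoisomerase of dividing cells, had a log2 fold change of -0.01 and was no DEG.

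Myc (ENSRNOG00000004500, chromosome 7 of rn6), a transcription factor that drives growth, measured 17.2, 19.5, 18.4 and 18.9 FPM at pH 7.4 and 91.9, 75.2, 67.2 and 48.7 FPM at pH 6.0. Expression was tightly grouped at pH 7.4 and more spread at pH 6.0, without overlap and with a log2 fold change of 1.93 (SE 0.16, adjusted p = 2.2e-06 in edgeR), 2.19 and 1.65 within numbers 20 and 21. Of 26 ribosome biogenesis genes, Myc included, 13 (50%) rose and 3 fell (median 0.45), beside 18.4% and 19.4% of all genes tested, with Nop16 (0.94) and Nop56 (0.86) rising and Polr1a (-1.01), the large subunit of RNA polymerase I, falling. Of 6 inhibitors of the cell cycle tested 4 fell and 1, Txnip, rose (median -0.67), and 2 were lower with number 21 alone. Cdkn1b (ENSRNOG00000007249, chromosome 4 of rn6), the p27 inhibitor of cyclin-dependent kinases, measured 338, 320.0, 316 and 283 FPM at pH 7.4 and 183, 168, 175 and 184 FPM at pH 6.0. Levels at pH 6.0 were all under the lowest at pH 7.4, with a log2 fold change of -0.82 (SE 0.09, adjusted p = 1.3e-05 in edgeR), -0.91 and -0.73 within numbers 20 and 21, where the last value missed the threshold (adjusted p = 0.0101 in edgeR). Cdkn2c, the p18 inhibitor, and Gas1, a gene of growth-arrested fibroblasts, fell (-1.61 and -1.68), and Txnip, the most counted gene of the list at pH 6.0, which binds thioredoxin and blocks glucose uptake, rose from 242 to 761 FPM.

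Matrix genes, which define the work of fibroblasts, had more falls than rises. Of 40 matrix proteins other than collagens 6 rose and 21 fell, with a median of -0.53 and shares of 15% and 52.5%, beside 18.4% and 19.4% of all genes tested. Of 18 collagen chains on the list 1 rose and 6 fell, with a median of -0.25 and shares of 5.56% and 33.3%. With number 20 alone 5 chains were higher and 8 lower, and with number 21 alone 0 and 4. The list does not hold Col20a1, named above, the only other collagen chain tested, which rose (3.90). Col3a1 (ENSRNOG00000003357, chromosome 9 of rn6), the chain of collagen III, measured 372, 371, 382 and 555 FPM at pH 7.4 and 28.9, 33.7, 53.1 and 79.4 FPM at pH 6.0. N14 was apart from the other libraries at pH 7.4 on the high side, and expression was low in all libraries at pH 6.0, with a log2 fold change of -3.10 (SE 0.29, adjusted p = 3.9e-06 in edgeR), -3.57 and -2.81 within numbers 20 and 21. Col1a1 (ENSRNOG00000003897, chromosome 10 of rn6), the main chain of collagen I, measured 5590.3, 6093, 5254 and 5848 FPM at pH 7.4 and 8234, 7759, 7858 and 6289 FPM at pH 6.0. Its groups did not overlap, and with a log2 fold change of 0.40 (SE 0.11, adjusted p = 0.0103 in edgeR), 0.45 and 0.36 within numbers 20 and 21 it lay just past the threshold and was no DEG. Col1a1 was a DEG without N16 (0.48, adjusted p = 0.00243 in edgeR), with the second number as a covariate (0.40, adjusted p = 0.00808) and in several other settings given in the closing section. Of the other collagens Col5a3, Col14a1, Col12a1 and Col16a1 fell (-3.05, -2.35, -1.58 and -0.997), and Col18a1, a basement membrane collagen, rose (1.05).

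Fn1 (ENSRNOG00000014288, chromosome 9 of rn6), the fibronectin that anchors cells to the matrix, measured 10190.4, 10526, 8037 and 10735 FPM at pH 7.4 and 6849, 6552, 5534 and 7594 FPM at pH 6.0. The lowest library at pH 7.4 was N13, and all libraries at pH 6.0 stayed under it, with a log2 fold change of -0.57 (SE 0.13, adjusted p = 0.00306 in edgeR), -0.63 and -0.51 within numbers 20 and 21. Without N9, N10, N12, N14 or N15 Fn1 missed the threshold (-0.56 to -0.49, adjusted p = 0.0105 to 0.0136 in edgeR), as it did within number 21 (adjusted p = 0.184). Glycoproteins with larger falls were thrombospondin Thbs1 (-1.78), tenascin Tnc (-2.07) and Ltbp1 (-2.82), which tethers latent TGF-beta. Aspn and Ogn, small leucine-rich proteoglycans, fell from 81.4 to 5.55 FPM and from 2.16 to 0.176 FPM. Spp1 (osteopontin), Cd44, the hyaluronan receptor, and Sdc2, a syndecan, rose by 0.90, 0.97 and 0.87. Lox (ENSRNOG00000014426, chromosome 18 of rn6), the enzyme that crosslinks collagen and elastin, measured 473, 451, 372 and 304 FPM at pH 7.4 and 152, 115, 70.2 and 75.8 FPM at pH 6.0. Expression at pH 6.0 was at most 152 FPM, against at least 304 FPM at pH 7.4, with a log2 fold change of -1.95 (SE 0.23, adjusted p = 2.7e-05 in edgeR), -1.79 and -2.20 within numbers 20 and 21. The processing genes Adamts2, Pcolce and Loxl1 fell as well (-1.29, -0.98 and -0.96), while P3h1 and Serpinh1, which act on collagen inside the cell, rose (0.91 and 0.71). In all, 5 processing genes rose and 7 fell of 20 (25% and 35%, median -0.06), beside 18.4% and 19.4% of all genes tested.

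Proteases and their inhibitors changed in both directions, with 5 rises and 11 falls of 26 and a median of -0.36. The shares were 19.2% and 42.3%, beside 18.4% and 19.4% of all genes tested. With number 20 alone 4 were higher and 14 lower (median -0.69), and with number 21 alone 3 and 8 (median -0.07). The median of the 18 proteases was -0.56 in number 20 alone and 0.22 in number 21 alone. The collagenase Mmp13 rose from 2.28 to 16.4 FPM and the gelatinase Mmp2 from 412 to 858 FPM. The inhibitors Timp1 and Timp2 fell from 176 to 81.6 FPM and from 2361 to 1386 FPM, and Adamts9 and Mmp16 fell (-2.76 and -3.05). Of 8 laminin chains tested 5 rose and 0 fell (62.5% and 0%, median 0.50), among them Lamc1 (0.97) and Lama5 (0.57). Of 14 integrins, with shares of 14.3% and 7.14%, Itga2 and Itga6, which bind collagen and laminin, rose (1.94 and 0.85) and Itga11, a collagen receptor of fibroblasts, fell (-1.10).

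Of 43 genes of the TGF-beta pathway 6 (14%) rose, 21 (48.8%) fell and 16 were no DEGs, with a median of -0.46, beside 18.4% and 19.4% of all genes tested. By role 6 of 12 ligands fell (median -0.64), 3 of 8 receptors (median -0.17) and 6 of 16 Smads and inhibitors (median 0.04). Among the ligands, Tgfb3 (ENSRNOG00000009867, chromosome 6 of rn6) measured 142, 142, 148 and 162 FPM at pH 7.4 and 51.1, 48.5, 51.2 and 49.5 FPM at pH 6.0. Libraries at pH 6.0 lay within a narrow range far under those at pH 7.4, with a log2 fold change of -1.57 (SE 0.08, adjusted p = 8.0e-08 in edgeR), -1.51 and -1.61 within numbers 20 and 21. Tgfb1 fell from 176 to 99.6 FPM and Tgfb2 rose from 41.8 to 70.9 FPM. Bmp4 (ENSRNOG00000009694, chromosome 15 of rn6), a bone morphogenetic protein, measured 128, 136, 135 and 126 FPM at pH 7.4 and 27.8, 21.99, 19.7 and 15.8 FPM at pH 6.0. No overlap was seen, and Bmp4 fell with a log2 fold change of -2.63 (SE 0.15, adjusted p = 1.2e-07 in edgeR), -2.40 and -2.87 within numbers 20 and 21. The antagonists Grem1 and Chrd and the inhibitory Smad6 and Smad7 fell too (-1.63, -1.75, -1.98 and -0.96), and the decoy receptor Bambi rose (1.17). Of 7 targets 6 fell and 1 rose, with a median of -1.90. Id1 (ENSRNOG00000021750, chromosome 3 of rn6), an inhibitor of basic helix-loop-helix factors and a target of bone morphogenetic proteins, measured 75.2, 68.5, 80.9 and 54.4 FPM at pH 7.4 and 15.1, 13.3, 10.1 and 12.3 FPM at pH 6.0. The separation was complete, with a log2 fold change of -2.46 (SE 0.15, adjusted p = 2.1e-07 in edgeR), -2.33 and -2.57 within numbers 20 and 21. Id3 and Tgfbi fell from 333 to 86.8 FPM and from 1311 to 351 FPM.

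Contractile and cytoskeletal genes had 14 falls and 2 rises of 25 (median -0.53). The shares that rose and fell were 8% and 56%, beside 18.4% and 19.4% of all genes tested. Flna (ENSRNOG00000054890, chromosome X of rn6), which crosslinks actin filaments, measured 736, 724, 642 and 819 FPM at pH 7.4 and 452, 365, 297 and 318 FPM at pH 6.0. Each library at pH 6.0 was lower than each at pH 7.4, with a log2 fold change of -1.03 (SE 0.14, adjusted p = 6.0e-05 in edgeR), -0.84 and -1.24 within numbers 20 and 21. Zyx, a focal adhesion protein, and Mylk, the myosin light chain kinase, fell (-1.30 and -1.60). Acta2, the alpha smooth muscle actin that marks myofibroblasts, was low at both pH values and fell from 2.15 to 0.417 FPM, and Des (desmin) rose from 0.986 to 2.70 FPM. Of 17 genes of the YAP group 2 rose and 6 fell (11.8% and 35.3%, median -0.32), with Ankrd1 (-5.07), Amotl2 (-1.85) and Ajuba (-1.49) beside Ccn2 on the lower side and Wwtr1, the gene of TAZ, on the higher (0.98).

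**Figure D2:**
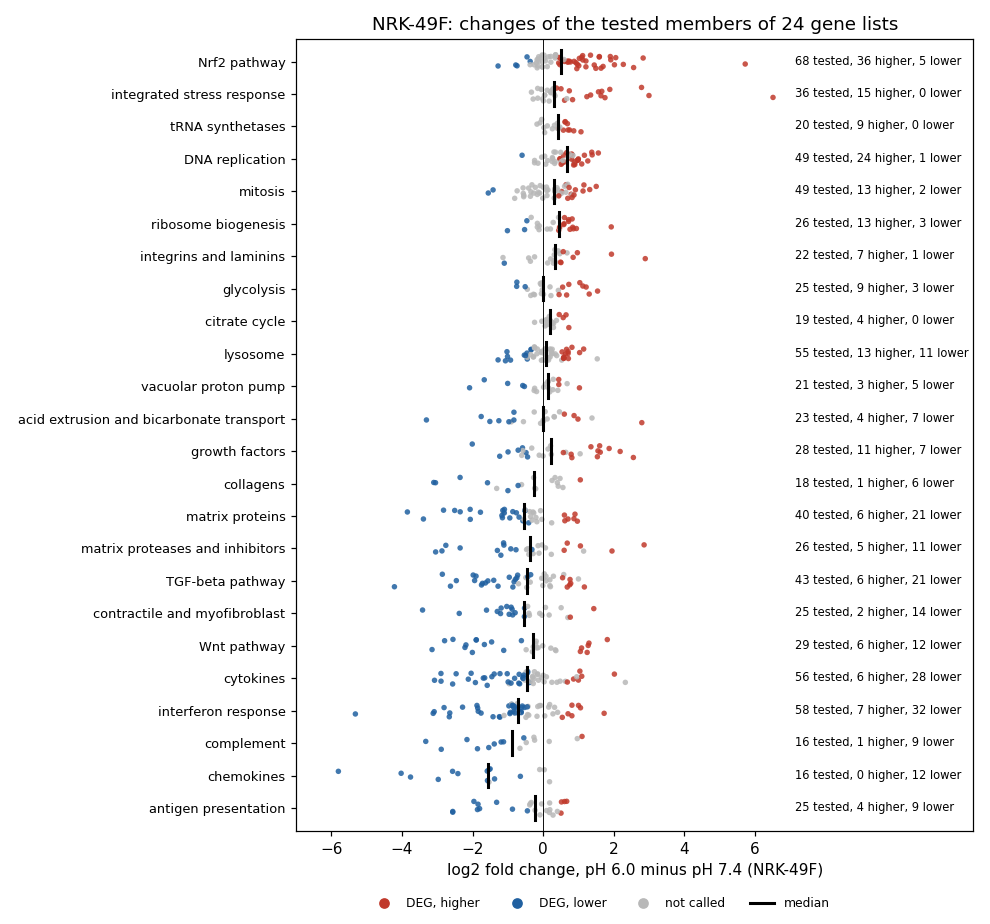
Log2 fold change (pH 6.0 against pH 7.4) of the tested genes of gene lists in NRK-49F cells, each point a gene and each bar the median of its list, with the counts of DEGs in each direction at the right. The medians of interferon response (-0.71) and matrix proteins (-0.53) lie on the lower side and those of DNA replication (0.67) and Nrf2 pathway (0.50) on the higher.

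Of 58 genes of the interferon response 7 rose and 32 fell, with a median of -0.71 and shares of 12.1% and 55.2%, beside 18.4% and 19.4% of all genes tested. Irf7 and Irf9, transcription factors of this response, fell (-0.72 and -0.90). The antiviral effectors Mx1 and Ifit1 fell from 3.10 to 0.350 FPM and from 1.71 to 0.205 FPM, and Lgals3bp, a secreted glycoprotein and the most counted member, from 1054 to 592 FPM. Against this direction Ifi27l2b, Bst2 (tetherin) and Cgas, a sensor of cytosolic DNA, rose, by 1.73, 1.004 and 1.06.

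Of 8 genes of antigen presentation by class II molecules 0 rose and 7 fell (0% and 87.5%, median -1.85). Cd74 (ENSRNOG00000018735, chromosome 18 of rn6), the invariant chain of class II molecules, measured 94.2, 118, 99.7 and 82.4 FPM at pH 7.4 and 19.6, 23.3, 12.8 and 11.9 FPM at pH 6.0. Both groups were well apart, with a log2 fold change of -2.56 (SE 0.20, adjusted p = 1.4e-06 in edgeR), -2.32 and -2.86 within numbers 20 and 21. Ciita, the master regulator of class II genes, fell from 9.39 to 2.75 FPM. Of 17 class I and peptide loading genes 4 rose and 2 fell (median 0.18), shares of 23.5% and 11.8% beside 18.4% and 19.4% of all genes tested, with RT1.A2 and RT1.A1 at 0.67 and 0.51. Class I genes are a family of similar copies, so their counts are uncertain. Of 16 complement genes 1 rose and 9 fell (6.25% and 56.2%, median -0.89). C3 (ENSRNOG00000046834, chromosome 9 of rn6), the central component, measured 33.9, 36.6, 19.6 and 18.8 FPM at pH 7.4 and 3.69, 2.76, 1.97 and 2.51 FPM at pH 6.0. Values within pH 7.4 were higher in number 20 than in number 21, and all exceeded those at pH 6.0, with a log2 fold change of -3.33 (SE 0.27, adjusted p = 1.5e-06 in edgeR), -3.42 and -3.08 within numbers 20 and 21. The initiating proteases C1r and C1s fell from 1772 to 679 FPM and from 609.7 to 168 FPM, and Cd59, which shields cells from lysis, rose from 61.4 to 132 FPM.

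Of 16 chemokines and their receptors 0 rose and 12 fell, with a median of -1.56 and shares of 0% and 75%, beside 18.4% and 19.4% of all genes tested. Ccl2 (ENSRNOG00000007159, chromosome 10 of rn6), which attracts monocytes, measured 238, 241, 310.3 and 221 FPM at pH 7.4 and 55.1, 93.6, 105 and 135 FPM at pH 6.0. The spread at pH 6.0 was wide, from 55.1 to 135 FPM, and stayed below pH 7.4, with a log2 fold change of -1.38 (SE 0.22, adjusted p = 2.2e-04 in edgeR), -1.70 and -1.13 within numbers 20 and 21. Cxcl3, an attractant of neutrophils, Cxcl10, induced by interferon, and Cxcl13, an attractant of B cells, fell from 2.67 to 0.353 FPM, from 51.1 to 8.59 FPM and from 36.8 to 2.63 FPM. Among 56 genes of cytokines, their receptors and NF-kB 6 rose and 28 fell (10.7% and 50%, median -0.46). Il33 (ENSRNOG00000016456, chromosome 1 of rn6), a nuclear cytokine released by damaged stromal cells, measured 675, 633, 626 and 607 FPM at pH 7.4 and 221, 247, 206 and 254 FPM at pH 6.0. Expression at pH 6.0 did not reach 260 FPM in any library, with a log2 fold change of -1.45 (SE 0.10, adjusted p = 4.1e-07 in edgeR), -1.48 and -1.41 within numbers 20 and 21. Its receptor Il1rl1 rose from 3.82 to 15.4 FPM. Il1r1, the receptor for interleukin 1, Lcn2, a marker of tubular injury, and Tnfaip6, which binds hyaluronan, fell from 71.6 to 22.1 FPM, from 50.1 to 5.93 FPM and from 14.02 to 1.88 FPM. Of 12 prostaglandin genes 3 rose and 4 fell (25% and 33.3%, median -0.06), with Pla2g2a, a secreted phospholipase, at -3.10.

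Of 28 growth factor genes 11 rose and 7 fell, with a median of 0.22 and shares of 39.3% and 25%, beside 18.4% and 19.4% of all genes tested. Fgf7 (ENSRNOG00000009425, chromosome 3 of rn6), the keratinocyte growth factor that stromal cells send to epithelial cells, measured 45.9, 44.0, 40.8 and 24.8 FPM at pH 7.4 and 276, 251, 207 and 181 FPM at pH 6.0. Mean expression was 5.88 times as high at pH 6.0, without overlap and with a log2 fold change of 2.56 (SE 0.19, adjusted p = 9.0e-07 in edgeR), 2.55 and 2.59 within numbers 20 and 21. Vegfa (ENSRNOG00000019598, chromosome 9 of rn6), the vascular endothelial growth factor, measured 252, 238, 225 and 283 FPM at pH 7.4 and 599.8, 595, 670.3 and 689.8 FPM at pH 6.0. All values at pH 6.0 lay well above the highest at pH 7.4, with a log2 fold change of 1.36 (SE 0.10, adjusted p = 1.0e-06 in edgeR), 1.29 and 1.43 within numbers 20 and 21. Tgfa and Nrg1, ligands of the epidermal growth factor receptor family, rose from 2.73 to 12.3 FPM and from 3.516 to 10.9 FPM, and Fgf9, a growth factor of nephron progenitors, from 0.469 to 1.65 FPM. Angpt1, which stabilises vessels, and Fgf10 fell (-1.23 and -0.99). In the Wnt pathway 6 genes rose and 12 fell of 29 (20.7% and 41.4%, median -0.28), with falls of the enhancers Rspo3 (-3.15) and Rspo1 (-2.21) and of the receptors Fzd4 (-2.56) and Ror2 (-1.90), and rises of the ligand Wnt7b (1.30) and the inhibitor Wif1 (1.82). Of 12 genes of insulin-like growth factors 1 rose and 4 fell (8.33% and 33.3%, median -0.24), with the binding protein Igfbp6 falling from 1149 to 584 FPM.

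Of 18 genes of AP-1 and the early growth response 8 rose and 2 fell (44.4% and 11.1%, median 0.70), beside 18.4% and 19.4% of all genes tested, led by Fosl1 (2.08). Of 18 feedback genes of MAP kinases 2 rose and 6 fell (11.1% and 33.3%, median -0.26). Dusp5 (ENSRNOG00000014061, chromosome 1 of rn6), a nuclear phosphatase of ERK, measured 11.6, 12.8, 14.04 and 12.7 FPM at pH 7.4 and 70.6, 78.4, 98.2 and 74.3 FPM at pH 6.0. The groups were apart by a wide margin, with a log2 fold change of 2.66 (SE 0.12, adjusted p = 4.0e-08 in edgeR), 2.61 and 2.71 within numbers 20 and 21. Dusp6, the cytosolic phosphatase of ERK, and Spry1, a feedback inhibitor of growth factor receptors, fell from 113 to 59.5 FPM and from 16.6 to 5.12 FPM.

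Of 11 genes of glutamine and ammonia 5 rose and 2 fell (45.5% and 18.2%, median 0.26), beside 18.4% and 19.4% of all genes tested. Glud1 (ENSRNOG00000057367, chromosome 16 of rn6), the mitochondrial glutamate dehydrogenase, measured 1080.3, 1029.8, 971 and 879 FPM at pH 7.4 and 299, 311, 315 and 382 FPM at pH 6.0. Levels at pH 6.0 were all under 400 FPM, with a log2 fold change of -1.60 (SE 0.11, adjusted p = 5.0e-07 in edgeR), -1.79 and -1.39 within numbers 20 and 21. Glul (ENSRNOG00000049560, chromosome 13 of rn6), the glutamine synthetase that binds ammonia, measured 199, 188, 151 and 166 FPM at pH 7.4 and 49.2, 48.4, 58.0 and 63.4 FPM at pH 6.0. It was low in every library at pH 6.0, with a log2 fold change of -1.68 (SE 0.12, adjusted p = 5.7e-07 in edgeR), -1.99 and -1.37 within numbers 20 and 21. Gpt2, an alanine transaminase, rose from 7.96 to 21.4 FPM. Of 25 genes of glycolysis 9 rose and 3 fell (36% and 12%, median 0.01). Hk2 (ENSRNOG00000006116, chromosome 4 of rn6), an inducible hexokinase, measured 33.8, 36.3, 27.1 and 33.8 FPM at pH 7.4 and 96.0, 85.7, 115 and 85.3 FPM at pH 6.0. The lowest value at pH 6.0 was far above the highest at pH 7.4, with a log2 fold change of 1.54 (SE 0.13, adjusted p = 1.6e-06 in edgeR), 1.37 and 1.73 within numbers 20 and 21. The glucose transporter Slc2a1 rose from 52.4 to 129.7 FPM, and Aldoa and Pkm, the aldolase and pyruvate kinase with the most counts, were no DEGs (0.01 and -0.05).

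Rises and falls numbered 3 and 3 of 17 for the hypoxia response (17.6% and 17.6%, median 0.14), near the 18.4% and 19.4% of all genes tested, with Adm (adrenomedullin) rising from 45.7 to 186 FPM. They were 4 and 0 of 19 for the citrate cycle (21.1% and 0%, median 0.20), and 6 and 3 of 19 for fatty acid oxidation (31.6% and 15.8%, median 0.07), with Hadha and Hadhb rising (0.89 and 0.79) and Cpt1a, the entry enzyme, falling (-0.67). For sterol synthesis and uptake they were 6 and 1 of 30 (20% and 3.33%, median -0.06), with the lipid carrier Stard4 rising from 5.45 to 11.7 FPM. With number 20 alone 12 sterol genes were higher and 2 lower (median 0.32), and with number 21 alone 0 and 2 (median -0.15). Fatty acid synthesis had 3 and 3 of 12 (25% and 25%, median 0.38), with Elovl5 (1.57) and Fads2 (-1.08) at its ends, and lipid droplets 3 and 0 of 11 (27.3% and 0%, median 0.18), with Plin2, a droplet coat protein, rising from 84.9 to 194 FPM. Besides Ampd3, Nampt, which limits NAD synthesis, rose from 37.9 to 66.3 FPM and Pnp, a purine phosphorylase, fell from 303 to 122 FPM, in a list with 5 rises and 4 falls of 17 (29.4% and 23.5%, median -0.05). Regulators of calcium and mineral had 2 rises and 1 fall of 5 (median 0.23), with the phosphate transporter Slc20a1 rising from 150.2 to 276 FPM.

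Of 17 clock genes 5 rose and 2 fell (29.4% and 11.8%, median 0.25), beside 18.4% and 19.4% of all genes tested. Cry1 (ENSRNOG00000006622, chromosome 7 of rn6), a repressor of the clock, measured 6.17, 6.20, 6.56 and 5.55 FPM at pH 7.4 and 38.3, 32.1, 25.5 and 20.5 FPM at pH 6.0. Expression was even at pH 7.4 and higher in each library at pH 6.0, with a log2 fold change of 2.25 (SE 0.19, adjusted p = 1.8e-06 in edgeR), 2.51 and 1.94 within numbers 20 and 21. Cry2, its paralog, fell from 95.4 to 49.9 FPM, Clock, an activator, rose from 28.1 to 52.95 FPM, and Ciart, a repressor, from 1.80 to 5.28 FPM.

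**Figure D3:**
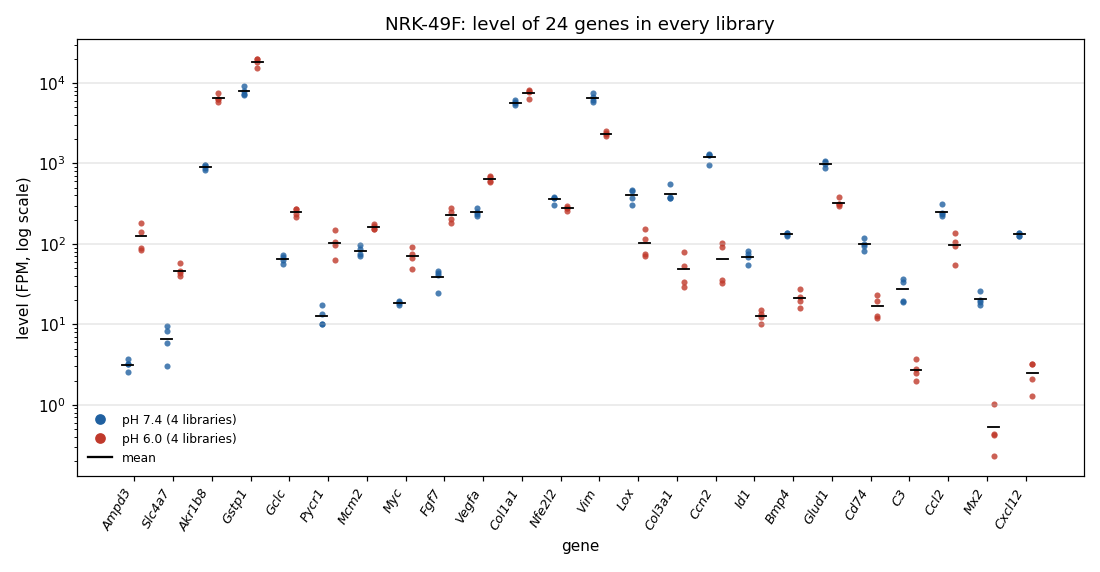
Level in FPM (vertical axis, log scale) of selected genes in each NRK-49F library, with pH 7.4 and pH 6.0 side by side, points for libraries and bars for the mean of 4. Ampd3 moves from 3.14 to 124 FPM and Cxcl12 from 132 to 2.45 FPM on average.

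The effect of pH in NRK-49F cells was compared with that in NRK-52E cells by the interaction of cell line and pH in 1 edgeR model of all 16 libraries. The second numbers, 20 and 21 in NRK-49F cells, are 21 and 22 in the other line, and the model takes no account of them, nor of wells and inserts that may come from the same co-culture. Of the 14679 genes tested there 37.0% had an interaction at an FDR below 0.01, and of the DEGs of NRK-49F cells 2241 did. Collagens had an interaction in 14 of 18 genes, with median log2 fold changes of -0.25 in NRK-49F cells and -1.26 in NRK-52E cells. Matrix proteins had an interaction in 19 of 40 genes, with medians of -0.53 and -1.27, so both medians were lower in NRK-52E cells. DNA replication had an interaction in 38 of 49 genes, with medians of 0.67 in NRK-49F cells and -0.90 in NRK-52E cells. Medians of NRK-52E cells leave out list members that were not tested in that line. Mcm2 had 0.99 in NRK-49F against -1.24 in NRK-52E cells, an interaction of 2.25 (SE 0.15, adjusted p = 2.7e-09 in edgeR). Myc rose in the fibroblasts and had -0.60 in NRK-52E cells, an interaction of 2.55 (SE 0.23, adjusted p = 9.3e-08 in edgeR). Targets and regulators of the integrated stress response had an interaction in 24 of 36 genes, with medians of 0.30 and 1.83, and for Atf4 it was -1.59 (SE 0.21, adjusted p = 6.3e-06 in edgeR). For Pycr1 the interaction was 0.25 (SE 0.30, adjusted p = 0.518 in edgeR) and did not pass the threshold.

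Ampd3 had the largest positive interaction among DEGs with a mean of 10 FPM or more at either pH, 6.82 (SE 0.32, adjusted p = 6.4e-11 in edgeR), and its value in NRK-52E cells was -1.50. Fgf7 had -0.65 in NRK-52E cells and an interaction of 3.24 (SE 0.28, adjusted p = 5.6e-08 in edgeR). Il33 fell less than in NRK-52E cells (-6.82), an interaction of 5.39 (SE 0.40, adjusted p = 1.0e-08 in edgeR). Among negative interactions Cxcl10 had -2.57 in NRK-49F and 3.06 in NRK-52E cells (adjusted p = 7.8e-09 in edgeR), Eng, a coreceptor of TGF-beta, -0.35 and 5.23, and Hic1, a transcriptional repressor, -1.17 and 3.94. Id1 differed by -2.69 (SE 0.20, adjusted p = 1.6e-08 in edgeR) and Bmp4 by -2.11 (SE 0.18, adjusted p = 4.0e-08 in edgeR). For the genes of the Nrf2 pathway the median was larger in NRK-52E cells (0.84) than in the fibroblasts (0.50), with an interaction in 39 of 68 genes. Members not tested in NRK-52E cells, such as Gsta2, count only toward the medians of NRK-49F cells, so the sets of genes can differ. By role, the medians in NRK-49F and NRK-52E cells were 0.7 and 0.37 for detoxification and 0.48 and -0.0 for iron, larger in the fibroblasts. They were 0.03 and 0.91 for regulators, 0.53 and 1.04 for glutathione and thioredoxin, and 0.56 and 1.05 for NADPH supply. Gclc, Akr1b8 and Tkt had more positive log2 fold changes in NRK-49F cells, by 1.09, 0.98 and 0.67. Nfe2l2, Gclm and Txnrd1 had more negative ones, by -1.27, -0.93 and -0.79, and for Gstp1 the interaction of 0.02 did not pass the threshold (adjusted p = 0.967 in edgeR).

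For some of the lists, promoter sequences from the RefSeq table of the GRCr8 build were searched on both strands in the 250 bases before the start of each gene, with 9224 of the genes tested matched by symbol. A match describes the letters and is neither a binding site nor a cause. The letters GAAA, 2 free bases and GAAA again, the core of the interferon-stimulated response element, were found in 3.41% of all 33469 promoters, in 2.48% of those of the genes tested and in 51.1% of those of the interferon list (23 of 45), with 15 of 27 genes that fell and 2 of 3 that rose. The core TGACNNNGC of the antioxidant response element was in 10.1% of all promoters, in 12.6% of those of the genes tested and in 13.8% of those of the Nrf2 list (8 of 58), a share close to that of the genes tested, with 6 of 32 genes that rose and 1 of 5 that fell. TTTCGCGC or TTTGGCGC, the letters of E2F sites, were in 0.636% of all, 1.25% of the genes tested and 20.5% of the DNA replication list (8 of 39), with 4 of 23 that rose and 0 of 1 that fell. CCAAT was in 34.0% of all, 3324 of 9224 of the genes tested and 71.4% of the mitosis list (30 of 42), with 8 of 11 that rose and 2 of 2 that fell. CACGTG was in 5.59% of all, 8.17% of the genes tested, 20.9% of the lysosome list (9 of 43) and 5.88% of the proton pump list (1 of 17), with 1 of 10 lysosomal genes that rose and 3 of 9 that fell, and 0 of 2 pump genes that rose and 1 of 5 that fell. Matches of different motifs were counted independently and may overlap. The promoters of 9 DEGs with a match, picked after their values were seen, show how these letters lie before the start of genes that rose (Gclm, Prdx1, Gstp1, Ctsd, Rbl1 and Mcm2) or fell (Rsad2, Oas1a and Ifi44l) at pH 6.0. They are written 5′ to 3′ on the strand of the gene, with the match to the motif of its list in capitals. Gclm lies at chr2:213031885-213032134, plus strand, Prdx1 at chr5:135383656-135383905, plus strand, Gstp1 at chr1:210769706-210769955, minus strand, Rsad2 at chr6:48788121-48788370, minus strand, Oas1a at chr12:41330216-41330465, plus strand, Ifi44l at chr2:243328473-243328722, plus strand, Ctsd at chr1:206968822-206969071, minus strand, Rbl1 at chr3:166289377-166289626, minus strand and Mcm2 at chr4:122918095-122918344, minus strand.
Gclm: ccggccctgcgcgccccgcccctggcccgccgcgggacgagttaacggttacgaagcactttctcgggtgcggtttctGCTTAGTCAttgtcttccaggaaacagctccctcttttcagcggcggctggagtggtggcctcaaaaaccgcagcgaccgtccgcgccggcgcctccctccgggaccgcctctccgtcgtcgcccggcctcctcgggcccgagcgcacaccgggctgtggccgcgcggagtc
Prdx1: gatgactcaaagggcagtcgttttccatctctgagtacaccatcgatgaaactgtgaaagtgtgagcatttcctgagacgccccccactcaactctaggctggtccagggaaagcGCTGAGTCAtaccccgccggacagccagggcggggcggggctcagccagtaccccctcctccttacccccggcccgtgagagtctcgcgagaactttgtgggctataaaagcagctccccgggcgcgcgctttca
Gstp1: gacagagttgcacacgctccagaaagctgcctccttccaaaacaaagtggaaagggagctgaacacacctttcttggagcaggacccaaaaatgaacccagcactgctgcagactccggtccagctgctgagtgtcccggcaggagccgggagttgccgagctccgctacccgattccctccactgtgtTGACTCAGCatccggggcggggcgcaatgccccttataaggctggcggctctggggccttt
Rsad2: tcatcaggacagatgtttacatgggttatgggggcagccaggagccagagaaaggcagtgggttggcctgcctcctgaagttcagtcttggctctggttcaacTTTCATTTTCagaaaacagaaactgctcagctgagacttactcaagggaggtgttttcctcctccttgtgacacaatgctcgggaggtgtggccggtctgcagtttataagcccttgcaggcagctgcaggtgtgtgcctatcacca
Oas1a: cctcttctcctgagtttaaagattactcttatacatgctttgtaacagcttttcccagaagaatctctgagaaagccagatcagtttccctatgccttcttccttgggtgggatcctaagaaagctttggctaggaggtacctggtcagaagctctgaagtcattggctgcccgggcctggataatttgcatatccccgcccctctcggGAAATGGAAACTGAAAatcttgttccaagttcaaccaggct
Ifi44l: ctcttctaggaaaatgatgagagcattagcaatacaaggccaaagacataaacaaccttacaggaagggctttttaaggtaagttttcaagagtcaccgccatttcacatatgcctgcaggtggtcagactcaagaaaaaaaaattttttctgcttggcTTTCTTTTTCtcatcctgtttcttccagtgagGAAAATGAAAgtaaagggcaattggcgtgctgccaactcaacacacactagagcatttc
Ctsd: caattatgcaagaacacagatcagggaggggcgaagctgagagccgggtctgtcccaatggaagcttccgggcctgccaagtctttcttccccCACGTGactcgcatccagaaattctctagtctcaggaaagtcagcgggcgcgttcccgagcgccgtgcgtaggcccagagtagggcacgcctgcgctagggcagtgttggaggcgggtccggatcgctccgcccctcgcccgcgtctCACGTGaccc
Rbl1: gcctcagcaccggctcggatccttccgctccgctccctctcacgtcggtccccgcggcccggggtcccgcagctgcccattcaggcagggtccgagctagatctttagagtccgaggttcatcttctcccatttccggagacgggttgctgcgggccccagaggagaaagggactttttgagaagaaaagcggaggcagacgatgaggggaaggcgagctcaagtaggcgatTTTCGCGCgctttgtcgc
Mcm2: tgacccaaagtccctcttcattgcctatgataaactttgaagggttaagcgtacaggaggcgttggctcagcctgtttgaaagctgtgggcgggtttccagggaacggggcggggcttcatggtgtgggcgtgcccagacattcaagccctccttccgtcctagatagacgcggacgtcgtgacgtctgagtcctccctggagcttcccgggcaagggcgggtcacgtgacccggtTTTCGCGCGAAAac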

How the data were processed

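Per the methods, RNA selected for poly(A) was read as 2 × 150 bp pairs. The authors aligned the reads to the rat genome build rn6 and deposited counts of fragments per gene from featureCounts, with fragments that map to several places counted at each. The aligner is tophat2 in the methods and HISAT2 2.1.0 in the notes of the deposited series. The labels write pH 7 and 6 where the methods write 7.4 and 6.0. From the counts, the 8 NRK-49F libraries were fitted by pH with edgeR 4.0.16 (quasi-likelihood test, TMM factors, low counts removed by filterByExpr) and with DESeq2 1.42.0 (Wald test) in R 4.3.3, after both had been tested on simulated data. DEGs have a Benjamini-Hochberg FDR below 0.01 in both. The difference between lines was the interaction in a single edgeR fit of 16 libraries. Exact permutation tests used log2(FPM + 1), tables were made in Python 3.11.15, and limma 3.58.1 was loaded by edgeR.

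The 50 lists hold 1468 distinct genes, of which 1425 are in the table and 1192 were tested. Members and lists were chosen with earlier results of these data known. Named are the 15 largest rises and 15 largest falls (at least 10 FPM in the higher group, no overlap, a symbol), of each role in a list the 4 largest rises and falls and the 3 members with the most counts, all members of roles with up to 12 tested, all cell type markers, and the 10 largest interactions of each sign. Genes shown with all libraries come from these groups. Some genes that fit this rule are not reported here. Alternatives were other scaling, filters, thresholds, a single tool, all 16 libraries in 1 fit, the second number as covariate or each number alone, and each library left out. Depth ran from 16201084 to 34784862 counted fragments per library, so that 1 FPM is at least 16 fragments. No value column was left out. No test of whole lists was made, and reads were not available.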

Additional observations from a re-analysis of the deposited data

Results flagged for a closer look

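Libraries far from the others of their group were sought by Dixon's test among 82 groups of 4, where chance alone would flag about 1 in 20. It found 2. For Ccn2 at pH 7.4, N14 had 967.8 FPM against 1272 to 1309 FPM. For Col3a1 at pH 7.4, N14 had 554.9 FPM against 370.7 to 382.4 FPM. No cause was tested.

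Of all 14679 genes in the fit of 16 libraries 37.0% had an interaction at an FDR below 0.01. The genes shown were picked partly for large changes. For 27 of the 41 genes shown, the log2 fold change in NRK-49F cells differed from that in NRK-52E cells by the interaction test in edgeR. More positive in NRK-49F cells were Ampd3 (6.82), Il33 (5.39), Fgf7 (3.24), Myc (2.55), Mcm2 (2.25), Slc4a7 (2.14), Dusp5 (2.07), Slc16a1 (1.49), Fn1 (1.48), Gclc (1.09), Akr1b8 (0.98), Col1a1 (0.82), Glul (0.70) and Tkt (0.67). More negative were Mx2 (-3.61), Id1 (-2.69), Ccn2 (-2.64), C3 (-2.57), Bmp4 (-2.11), Col3a1 (-1.83), Atf4 (-1.59), Krt8 (-1.58), Nfe2l2 (-1.27), Tgfb3 (-1.26), Glud1 (-1.18), Hk2 (-0.81) and Cdkn1b (-0.67). The lines differ in cell type and in their place on the floor or on the filter, and these were not separated. Their second numbers differ as well, 21 and 22 for NRK-52E and 20 and 21 for NRK-49F, and the fit of 16 libraries takes no account of them or of wells and inserts that may share a co-culture.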

How the results depend on the processing

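The 5039 DEGs became 1980 with number 21 alone, where 999 were higher and 981 lower, while number 20 alone gave 4680. Each of these fits holds 4 libraries. The other alternatives stayed within 1.5 times the main count, from 4126 (without N15) to 4993 (without N13) with each library left out and up to 6976 with an FDR below 0.05. Scaling by total counts alone made 53.1% of the DEGs higher, against 48.7%, and moved the median of all genes to 0.04. Interaction genes numbered 4708 (without N2) to 5973 (without N8) with each library left out, and 5428 in the main fit.

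Of the 41 genes shown with all libraries, 39 were DEGs, and all 39 kept their sign within both numbers. Only Atf4 changed sign, with -0.02 in number 21 alone (adjusted p = 0.96 in edgeR). Nfe2l2 was no DEG with total counts (-0.32), without the filter (-0.35) and in number 21 alone (-0.25), nor was Fn1 with all 16 libraries in 1 fit (-0.58). In number 21 alone Ctsd (0.80), Cdkn1b (-0.73), Cenpf (-1.19) and Fn1 (-0.51) were no DEGs either. Col1a1 became a DEG with DESeq2 factors, total counts (0.45), a filter of 1 CPM, the number as covariate (0.40), number 20 alone (0.45), DESeq2 alone (0.41) and an FDR below 0.05, and Atf4 in number 20 alone (0.54). Of 100 counts of DEGs in lists, 60 shrank by more than 1.5 times and 1 grew in number 21 alone. In number 20 alone 13 grew and 2 shrank, and 21 grew with an FDR below 0.05. With each library left out, from 1 (without N13) to 8 (without N15) shrank and at most 3 grew (without N16). With DESeq2 alone 10 grew. The causes were not tested. No paired analysis was possible because the groups share no library number, and each second number holds 2 libraries of each pH. With the second number as a covariate 5211 genes were DEGs, 2545 higher and 2666 lower.

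Whether libraries of a group are separate cultures is not stated, and the meaning of the second number is unknown. All cells were in co-culture, so direct effects of pH on fibroblasts and effects that pass through the tubule cells cannot be told apart. A single acidic pH and a single time were sampled. RNA does not give protein or activity, and cell number and growth were not measured. Genes with few counts, such as Gpr4, are beyond this depth. Strand and shared fragments limit genes with overlaps or close copies. Promoter sequences come from another build than the counts.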
